A study of Rattus norvegicus with 4 samples.

Results

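Scg2, Vgf, Pcsk1 and Pcsk2 are 4 of the 30560 genes listed for single nuclei of the rat nucleus accumbens, and each symbol stands on 1 row of the deposited gene lists (ENSRNOG00000015055, ENSRNOG00000001416, ENSRNOG00000011107 and ENSRNOG00000005438). They were selected on their measured response to cocaine in these same libraries. Their values with cocaine and saline are therefore given as a description without a test. Contrasts between sexes and between cell classes, which were not the contrast of that choice, were tested. The class contrasts pool both treatments, so they include the cocaine values.

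Scg2 (secretogranin II) and Vgf are granin-family proteins that neurons pack into dense-core vesicles, the carriers of neuropeptides, and release on strong activity. Both proteins are also precursors, cut into smaller secreted peptides. Pcsk1 and Pcsk2 encode the prohormone convertases that make such cuts at pairs of basic residues inside the secretory pathway. Scg2, Vgf and Pcsk1 are known as genes that neuronal activity induces, and Scg2 and Vgf are known targets of the cAMP-responsive factor CREB. In the striatum these proteins serve medium spiny neurons, the projection neurons that carry either the D1 or the D2 dopamine receptor and the peptides dynorphin, substance P or enkephalin, and local interneurons such as those making somatostatin and neuropeptide Y.

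The stretch of 250 bases upstream of the annotated start is shown for Scg2 and Vgf, because the letters TGACGTCA, the full cAMP response element, occur in both, and for Pcsk2 for contrast. Sequences are from RefSeq on GRCr8, 5′ to 3′ on the gene's strand, with the element in capitals. Of the 4 genes 3 had an entry.
Scg2 (chr9:88256867-88257116, minus strand): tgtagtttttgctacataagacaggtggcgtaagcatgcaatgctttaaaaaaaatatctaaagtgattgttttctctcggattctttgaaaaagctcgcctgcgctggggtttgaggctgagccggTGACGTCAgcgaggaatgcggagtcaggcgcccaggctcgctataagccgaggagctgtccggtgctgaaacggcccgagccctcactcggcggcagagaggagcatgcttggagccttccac
Vgf (chr12:25277021-25277270, minus strand): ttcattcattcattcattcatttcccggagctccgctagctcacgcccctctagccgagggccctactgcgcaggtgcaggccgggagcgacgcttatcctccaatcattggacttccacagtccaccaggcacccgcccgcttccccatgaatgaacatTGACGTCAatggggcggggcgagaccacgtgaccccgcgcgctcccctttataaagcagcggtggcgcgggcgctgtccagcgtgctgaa
Pcsk2 (chr3:151333688-151333937, plus strand): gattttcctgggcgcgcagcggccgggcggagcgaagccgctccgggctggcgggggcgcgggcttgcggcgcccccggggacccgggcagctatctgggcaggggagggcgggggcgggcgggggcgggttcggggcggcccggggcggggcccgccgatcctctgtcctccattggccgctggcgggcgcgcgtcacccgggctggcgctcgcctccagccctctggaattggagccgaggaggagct
The first base of the element lies 123 bases before the start of Scg2 and 90 bases before that of Vgf. Both strands were searched, and TGACGTCA reads the same on both. It occurs in 531 of 33469 such stretches (1.59%). The Pcsk2 stretch holds no TGACGTCA and 1 match to its first 5 letters, TGACG, which occur on either strand of 18.2% of stretches and are contained in the full element. Of 46 other secretory genes with an entry, 1 (Cartpt) held TGACGTCA. A match is a description of these letters and no evidence of binding.

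The 4 libraries came from Sprague-Dawley rats aged 90 to 120 days, given an intraperitoneal injection on each of 7 days and sampled 1 hour after the last one. Cocaine was given at 20 mg/kg in physiological saline, and control rats received saline alone. Each library pooled 2 mm accumbens punches of 4 rats, and the groups were saline female, saline male, cocaine female and cocaine male, 1 pool each and 16 rats in all. With 2 pools per treatment, differing in sex, p-values measure only the spread between these pools, and each pool is 1 replicate however many nuclei it holds.

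The libraries held 31484217 to 40737786 unique molecular identifiers (UMIs, 1 per captured RNA molecule) over 6213 to 7265 barcodes, and 24843 of 26228 nuclei were kept. Of these 18783 (75.6%) fell into exactly 1 of 13 classes defined by marker genes, and 11 classes had at least 25 nuclei in every library. Of 26143 distinct barcodes 81 occurred in more than 1 library. The saline female library was the deepest in every class given here, with a median of 10415 UMIs per D1 nucleus against 7739, 8179 and 7153 in the saline male, cocaine female and cocaine male libraries. The classes were gated on their markers, so their levels describe the gates. Sst, Npy and Nos1 stood at 1318, 1953 and 670 CPM (UMIs of the gene per 1000000 UMIs of the class) in the Sst interneuron class and at no more than 9.9 CPM in the D1, D2 and oligodendrocyte classes. Drd1, Ebf1 and Isl1 were at 133, 515 and 81.0 CPM in the D1 class and at no more than 1.8 CPM in the D2 class, but the listed D1 marker Eya1 was at 0.22 CPM in D1 nuclei and at 321 CPM in astrocytes. In the Pthlh class Pthlh and Kit were at 162 and 427 CPM and the listed marker Cox6a2 at 1.6 CPM. The Grm8/Casz1 class joins spiny nuclei with a UMI of Chst9 or Casz1 and of another marker among Grm8, Chst9, Casz1, Otof and Cacng5. Its gate limited D2 markers but not D1 markers. Drd1 stood at 86.8 CPM in this class, and Ebf1 and Isl1 at 6.9 and 10.7 CPM.

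Between cocaine and saline the 4 genes differed in how many classes showed separate values. Scg2 was higher in both cocaine libraries than in both saline libraries in 7 of the 9 classes where it passed the filter on low counts, Vgf in 4 of 7, Pcsk1 in 4 of 6 and Pcsk2 in 2 of 9. Of the 44 pairs of gene and class, 31 passed that filter, and 22 of these had a higher fitted level with cocaine. Over all genes the median fitted log2 difference lay between -0.0067 and 0.0065 in every tested class. Higher and lower fitted levels were thus about equally common over all genes. Over all genes, both cocaine libraries stood above both saline libraries for 19.7% in D1, 22.2% in D2, 18.1% in Grm8/Casz1 and 19.8% in Sst interneuron nuclei. In those 4 classes 3, 3, 3 and 2 of the 4 genes did so, a count that the choice of genes fixes in part. Over all 11 tested classes the share of all genes ran from 18.1% in Grm8/Casz1 to 22.3% in oligodendrocyte nuclei. The 2 of 9 classes of Pcsk2 are near that share. Pcsk1 in Grm8/Casz1 nuclei passed the filter through the cocaine libraries alone, so its place in all these counts follows from that difference.

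**Figure D1:**
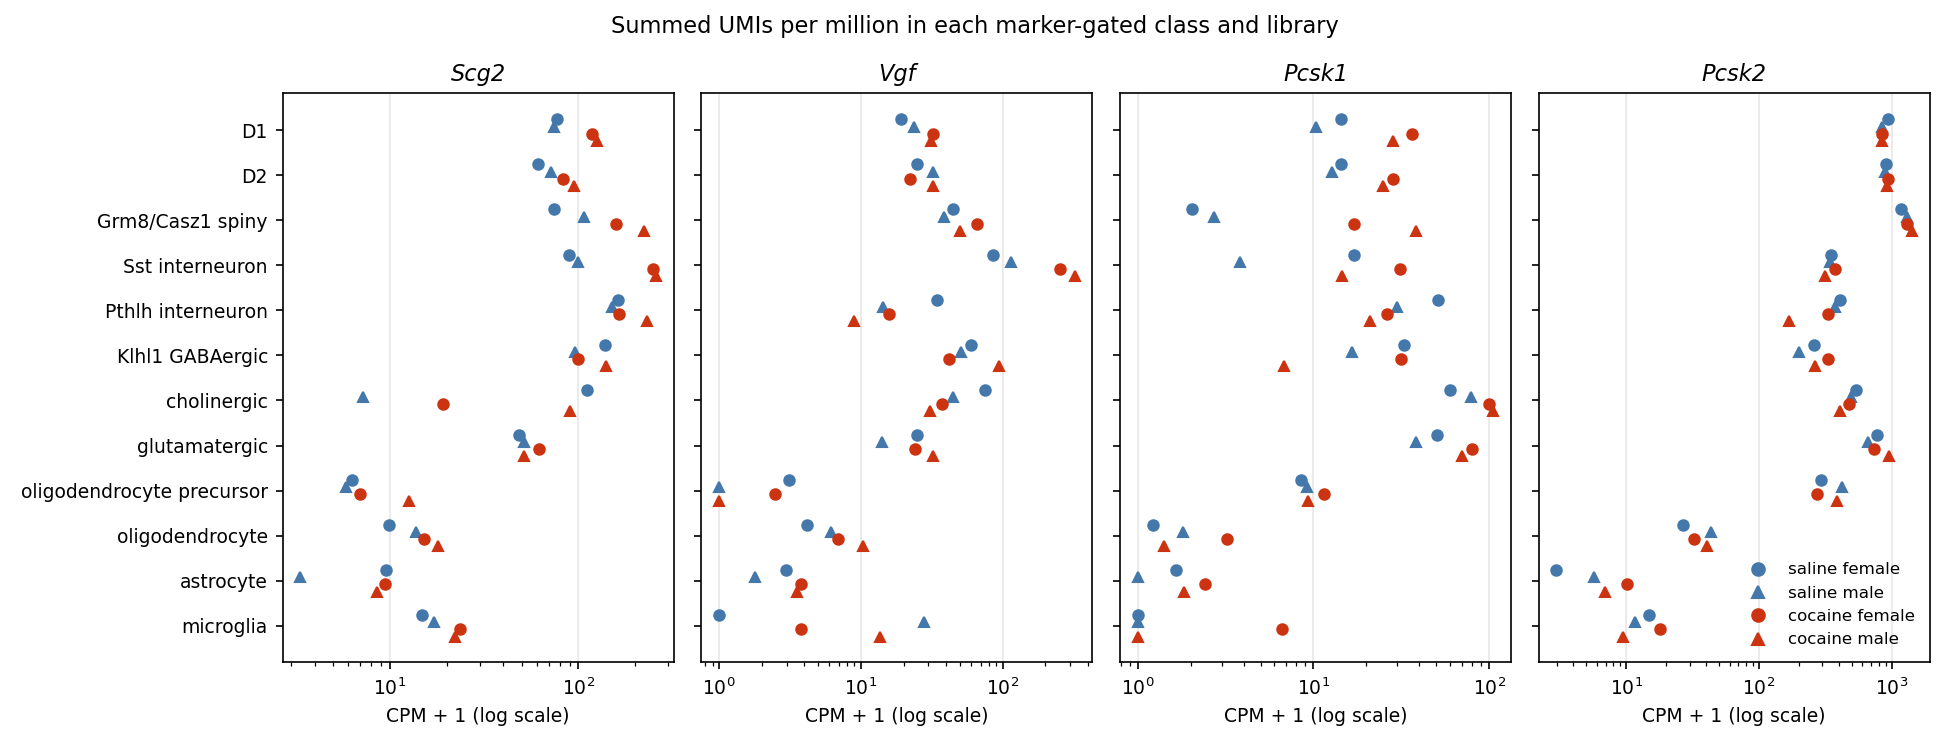
Levels of the 4 genes in 12 cell classes, as CPM + 1 on a log axis, with 1 point per library (saline and cocaine, female and male). For Scg2, Vgf and Pcsk1 the cocaine points lie above the saline points in D1 and Grm8/Casz1 nuclei, while the Pcsk2 points of the 4 libraries lie close together in D1 and D2 nuclei.

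Scg2 in D1 nuclei measured 75.6 CPM in saline females, 72.9 in saline males, 118 in cocaine females and 124 in cocaine males. From here on the female library is given first and the male library second. The cocaine values do not overlap the saline values, and the sexes lie close together within each treatment. The means were 74.3 ± 1.88 and 121 ± 4.91 CPM (SD, n = 2 pools each), a 1.63-fold ratio and a fitted log2 difference of 0.68 (SE 0.09), which was 0.40 with stricter marker gates. Here and below the SE comes from the edgeR fit, which also draws on other genes, and is no spread of the 2 pools. In D2 nuclei, Scg2 was at 60.4 and 70.9 CPM with saline and at 81.8 and 94.0 CPM with cocaine, again without overlap, with a log2 difference of 0.38 (SE 0.09). Grm8/Casz1 nuclei had 73.2 and 105 CPM with saline against 158 and 221 CPM with cocaine (log2 difference 1.08, SE 0.13).

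Among the 11 classes the highest Scg2 levels with cocaine were those of Sst interneuron nuclei, a class of only 31, 65, 73 and 60 nuclei in the saline female, saline male, cocaine female and cocaine male libraries. Their Scg2 UMIs numbered 22, 35, 107 and 76 in that order. As CPM this was 88.4 and 98.8 with saline and 246 and 256 with cocaine, 2.68 times as high on average (log2 difference 1.39, SE 0.24). Scg2 overlapped between treatments in Klhl1 GABAergic nuclei, at 137 and 95.3 CPM with saline against 98.4 and 139 CPM with cocaine. In glutamatergic nuclei all 4 values lay between 47.4 and 61.0 CPM. Whether the cocaine difference itself differs between classes was not tested.

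Vgf, whose peptides act outside the cell, was highest in the Sst interneuron class. There it had 21, 40, 110 and 95 UMIs, which is 84.4 and 113 CPM with saline and 253 and 320 CPM with cocaine. Both cocaine values lay well above both saline values. The ratio of means was 2.91 and the log2 difference 1.50 (SE 0.24). In D1 nuclei Vgf was at 18.3 and 22.7 CPM with saline and 31.4 and 30.5 CPM with cocaine (log2 difference 0.58, SE 0.14). D2 nuclei differed from this pattern in the values themselves, with 23.9 and 31.5 CPM with saline and 21.3 and 31.3 CPM with cocaine. There the male libraries were above the female libraries under both treatments. Grm8/Casz1 nuclei held 44.0 and 37.6 CPM with saline and 64.4 and 48.8 CPM with cocaine (log2 difference 0.47, SE 0.18, and 0.26 without the cocaine female library).

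Pcsk1 in D1 nuclei had 88 and 64 UMIs with saline and 259 and 184 with cocaine. As CPM this was 13.4 and 9.3 against 35.4 and 27.4, a 2.76-fold ratio of means and a log2 difference of 1.45 (SE 0.16), larger in value than that of the granins in the same nuclei. D2 nuclei had 13.4 and 11.8 CPM with saline and 27.5 and 24.0 CPM with cocaine (log2 difference 0.99, SE 0.15). In Grm8/Casz1 nuclei Pcsk1 had 2 and 3 UMIs with saline and 32 and 53 with cocaine, or 1.0 and 1.7 against 16.1 and 37.5 CPM. It passed the filter there through the cocaine libraries alone, so its presence among the passing pairs follows from that difference and no fold is given. Glutamatergic nuclei had 49.1 and 37.2 CPM with saline and 79.0 and 69.2 CPM with cocaine (log2 difference 0.72, SE 0.27, and 0.42 with doublets kept). This class held 46 and 38 nuclei in the saline libraries and 187 and 93 in the cocaine libraries. Cholinergic nuclei, too few to test at 22, 30, 26 and 7, had 59.0 and 77.4 CPM with saline and 98.4 and 104 CPM with cocaine. In Sst interneuron nuclei Pcsk1 had 4, 1, 13 and 4 UMIs and did not pass the filter, so it could not be read in the class where Vgf was highest.

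Pthlh interneuron nuclei, a class known to include fast-spiking cells, had lower values with cocaine for both convertases. Pcsk1 was at 49.9 and 29.0 CPM with saline and at 25.4 and 19.9 CPM with cocaine, from 37, 13, 12 and 5 UMIs, and its log2 difference ran from -1.13 to -0.40 when 1 library was left out, the smallest without the saline female one. Pcsk2 was at 404 and 375 CPM with saline and at 328 and 167 CPM with cocaine (log2 difference -0.69, SE 0.18). Leaving out the cocaine female library gave -1.30 and leaving out the cocaine male one -0.31. Over all genes in this class 12.2% had both cocaine libraries below both saline libraries. Scg2 in the same nuclei was at 160 and 149 CPM with saline and 163 and 231 CPM with cocaine.

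Pcsk2 differed little between treatments in spiny neurons. In D1 nuclei it was at 932 and 835 CPM with saline and 836 and 838 CPM with cocaine, which overlap (log2 difference -0.10, SE 0.07). In D2 nuclei it was at 908 and 884 CPM with saline and 940 and 913 CPM with cocaine. These do not overlap in CPM, but the fitted log2 difference was 0.01 (SE 0.07) and its sign turned under several settings. Sst interneuron nuclei had 346 and 339 CPM with saline and 373 and 310 CPM with cocaine. The 2 convertases thus differed in their values for the same nuclei, with 1.45 for Pcsk1 and -0.10 for Pcsk2 in D1 on the log2 scale.

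Oligodendrocyte nuclei, a class outside neurons, show how often these genes were counted where they are not known to be made. Scg2 had a UMI in 1.95% and 2.40% of them with saline and in 2.66% and 2.86% with cocaine, Vgf in 0.701% and 0.976% against 1.09% and 1.57%, and Pcsk1 in 0.050% and 0.15% against 0.417% and 0.068%. No oligodendrocyte nucleus held more than 1 UMI of any of these 3 genes. Their median depth was 1518.5 to 2005 UMIs per nucleus. Scg2 there stood at 8.9 and 12.8 CPM with saline and 14.2 and 17 CPM with cocaine, far below the D1 and Sst classes but also higher with cocaine. Where these counts come from, and their part in the neuronal values, was not tested.

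For Scg2 and Pcsk1 in D1 nuclei, the share of nuclei with any UMI differed less between treatments than the number of UMIs. Of D1 nuclei 43.3% (95% exact binomial interval 39.3 to 47.4) and 38.3% (35.0 to 41.7) had a Scg2 UMI with saline, and 40.3% (36.9 to 43.7) and 43.3% (40.0 to 46.7) had one with cocaine. These intervals cover counting error only. After each nucleus was thinned to 3000 UMIs, to set the libraries at 1 depth, the shares were 19.6% and 18.4% with saline and 19.6% and 23.8% with cocaine. UMIs per positive nucleus were 1.91 and 1.58 with saline and 2.56 and 2.21 with cocaine. For Pcsk1 the share with a UMI was 9.03% (6.86 to 11.6) and 4.72% (3.38 to 6.39) with saline and 8.12% (6.36 to 10.2) and 8.13% (6.41 to 10.1) with cocaine, and after thinning 2.68% and 3.17% against 5.14% and 4.73%. A positive D1 nucleus carried 1.63 and 1.64 Pcsk1 UMIs with saline and 3.81 and 2.59 with cocaine.

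**Figure D2:**
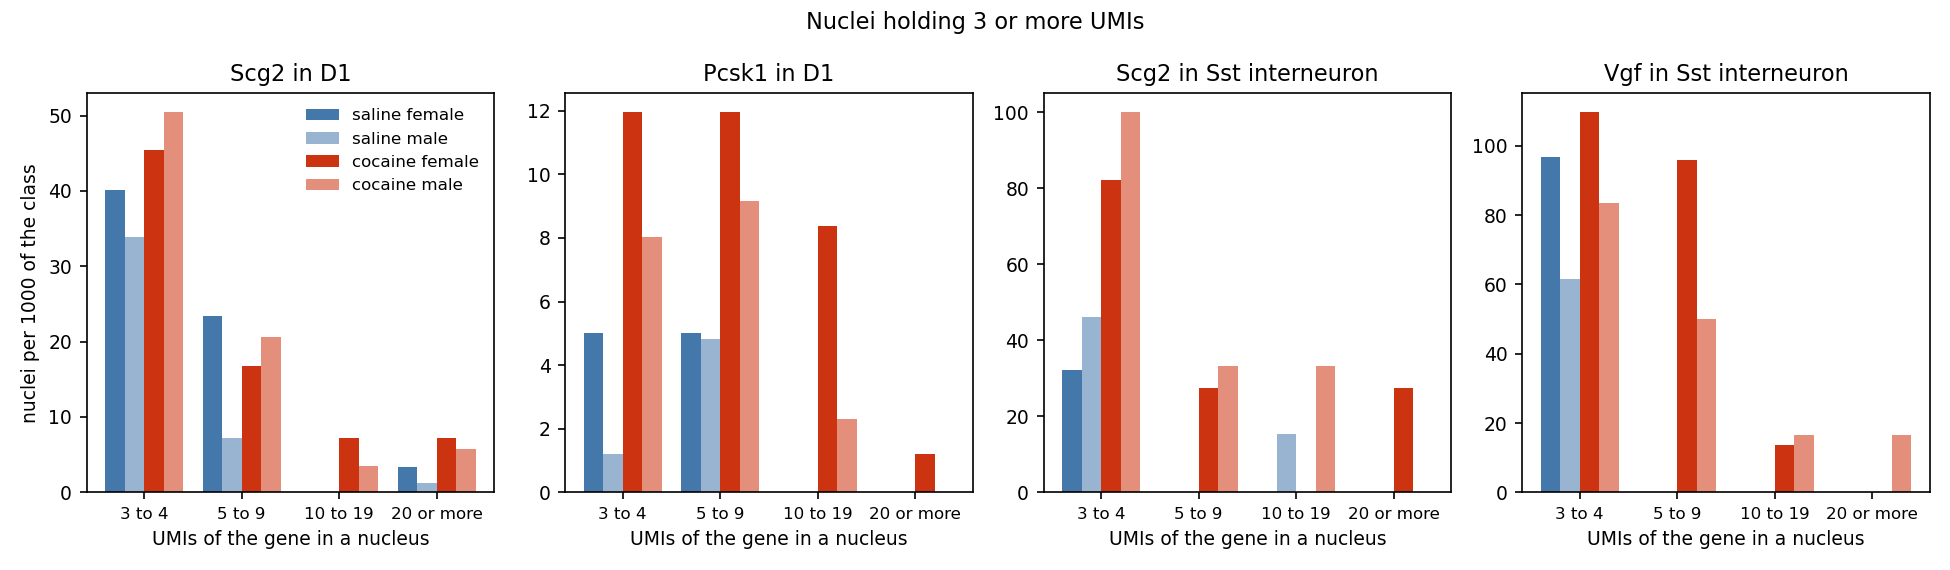
Nuclei per 1000 of their class that held 3 to 4, 5 to 9, 10 to 19 or at least 20 UMIs, for Scg2 and Pcsk1 in D1 nuclei and Scg2 and Vgf in Sst interneuron nuclei, with 1 bar per library. In D1 nuclei Pcsk1 reached 26 and 16 UMIs per nucleus in the cocaine libraries and 9 and 7 in the saline libraries.

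A small number of nuclei carried much of the difference. Nuclei with at least 5 UMIs of Pcsk1 numbered 3 of 598 and 4 of 827 D1 nuclei with saline and 18 of 837 and 10 of 873 with cocaine. They held 25% and 37.5% of all Pcsk1 UMIs of the class with saline and 68.3% and 47.3% with cocaine. Among the other D1 nuclei Pcsk1 stood at 10.1 and 5.8 CPM with saline and 11.4 and 14.6 CPM with cocaine. D2 nuclei showed the same concentration, with 4 and 5 such nuclei with saline and 12 and 10 with cocaine, the latter holding 63.3% and 56.1% of the UMIs. Outside them Pcsk1 in D2 nuclei was at 10.4 and 6.7 CPM with saline and at 10.3 and 10.7 CPM with cocaine, values that overlap. In Grm8/Casz1 nuclei 3 and 4 nuclei of the cocaine libraries held 62.5% and 92.5% of all Pcsk1 UMIs.

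Scg2 was concentrated to a lesser degree. Nuclei with at least 5 Scg2 UMIs numbered 16 and 7 among D1 nuclei with saline and 26 and 26 with cocaine, with 29.8% and 11.4% of UMIs against 45.5% and 38.2%. The largest single nucleus held 40 and 24 UMIs with saline and 56 and 57 with cocaine. Outside such nuclei D1 levels were 54.7 and 65.2 CPM with saline and 66.1 and 79.3 CPM with cocaine, still without overlap. In Grm8/Casz1 nuclei the level outside them was 57.3 and 77.9 CPM with saline and 65.0 and 83.1 CPM with cocaine, which overlap, against 73.2 and 105 versus 158 and 221 CPM in the whole class. In the Sst class 0 and 1 nuclei with saline and 4 and 4 with cocaine were this rich in Scg2, and outside them Scg2 was at 88.4 and 73.4 CPM against 109 and 145 CPM.

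Vgf in the Sst interneuron class was spread over more nuclei. It had a UMI in 35.5% and 35.4% of these nuclei with saline and in 54.8% and 56.7% with cocaine, and after thinning in 12.9% and 25.4% against 41.7% and 44.2%. No saline nucleus of the class held 5 Vgf UMIs, while 8 and 5 cocaine nuclei did, with 47.3% and 48.4% of its UMIs. Outside those nuclei Vgf was still at 147 and 180 CPM with cocaine against 84.4 and 113 CPM with saline. Over Scg2, Vgf and Pcsk1 in D1, D2, Grm8/Casz1 and Sst nuclei, the share of nuclei with at least 5 UMIs was larger in both cocaine libraries for 9 of 12 pairs of gene and class. With at least 3 UMIs, a limit tried after the values were seen, it was so for 6 of 12. The same count over all genes was not computed, and the choice of genes fixes these counts in part.

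The nuclei rich in Pcsk1 were also rich in Nr4a3 and Homer1, which neuronal activity turns on. Values of the other activity genes in these nuclei are not given here. Nr4a3, an early-induced nuclear receptor gene, averaged 24.0 and 25.1 UMIs in the D1 nuclei with at least 5 Pcsk1 UMIs of the cocaine female and male libraries, against 0.21 and 0.10 in D1 nuclei without Pcsk1. In the saline libraries the same sets averaged 1.33 and 4.50 against 0.26 and 0.11. Homer1, which encodes a postsynaptic scaffold with an activity-induced short form, averaged 64.3 and 60.4 UMIs against 7.08 and 5.08 with cocaine, and 82.3 and 11.3 against 6.51 and 4.90 with saline, where the sets hold 3 and 4 nuclei. Scg2 averaged 10.3 and 11.4 UMIs in the Pcsk1-rich cocaine nuclei against 0.69 and 0.70. Pcsk2 was lower there as a share of the nucleus, at 690 and 727 CPM against 855 and 853 CPM. The rich nuclei of the cocaine libraries had median depths of 8764 and 9260 UMIs against 8179 and 7153 in the whole class.

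**Figure D3:**
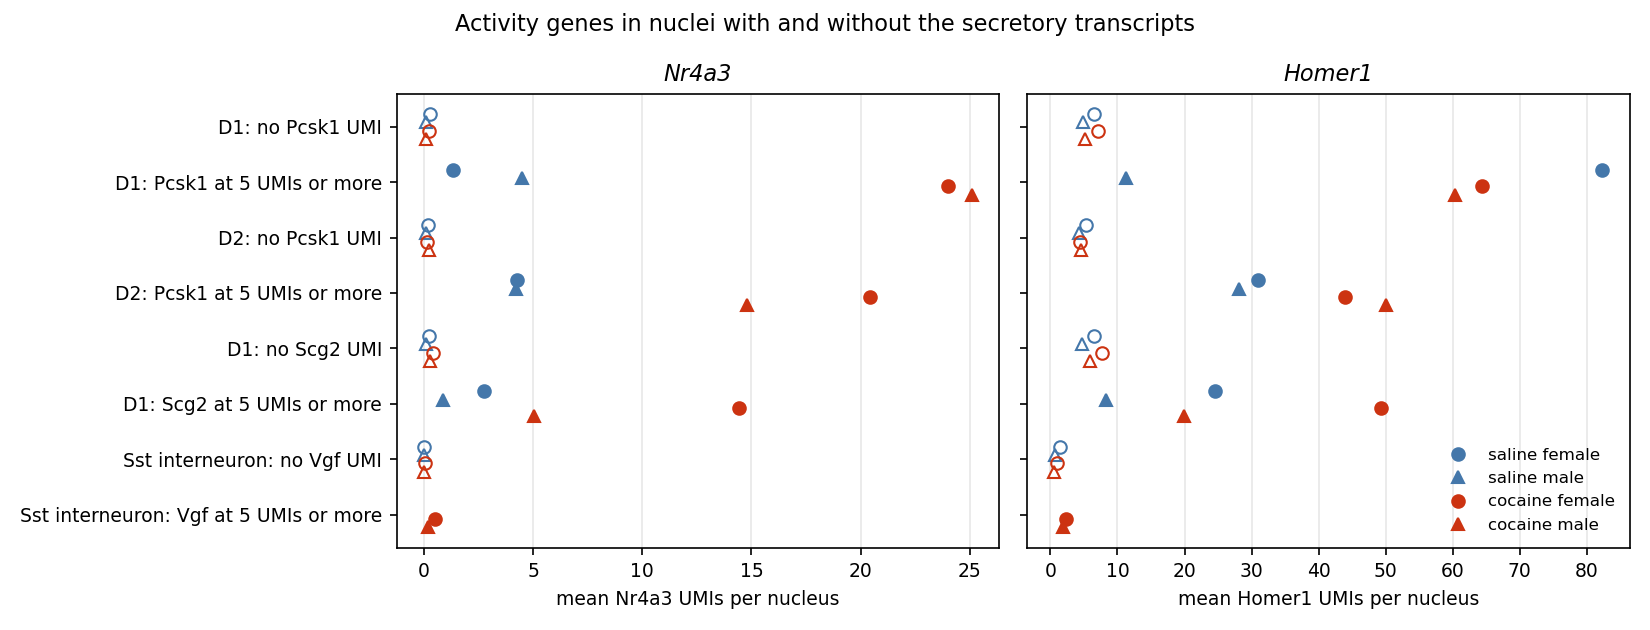
Mean UMIs per nucleus of Nr4a3 and Homer1 in nuclei with no UMI and with at least 5 UMIs of a member gene, by class and library. In D1 nuclei of the cocaine libraries, those with at least 5 Pcsk1 UMIs average 24.0 and 25.1 Nr4a3 UMIs and those without Pcsk1 average 0.21 and 0.10.

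The same held for Nr4a3 in D2 nuclei, where Pcsk1-rich nuclei averaged 4.25 and 4.2 Nr4a3 UMIs with saline and 20.4 and 14.8 with cocaine. D1 nuclei with at least 5 Scg2 UMIs averaged 2.75 and 0.86 Nr4a3 UMIs with saline and 14.4 and 5.04 with cocaine. In Grm8/Casz1 nuclei the 3 and 4 Pcsk1-rich nuclei of the cocaine libraries averaged 24.3 and 31.3 Scg2 UMIs and 18.7 and 21.5 Nr4a3 UMIs. Their Pcsk2 stood at 708 and 693 CPM against 1290 and 1439 CPM in Grm8/Casz1 nuclei without Pcsk1. The 8 and 5 Vgf-rich nuclei of the Sst class in the cocaine libraries averaged 4.75 and 5.60 Scg2, 0.50 and 0.20 Nr4a3 and 2.25 and 1.80 Homer1 UMIs. Sst nuclei without Vgf in those libraries averaged 0.58 and 0.31 Scg2, 0.03 and 0.00 Nr4a3 and 0.97 and 0.58 Homer1 UMIs.

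The sets of rich nuclei overlapped in part. In D1 nuclei with cocaine 52 were rich in Scg2 and 28 in Pcsk1, and 11 were in both sets, 21.2% of the first and 39.3% of the second. With saline the sets held 23 and 7 nuclei and shared 1. In Grm8/Casz1 nuclei with cocaine they held 22 and 7 and shared 6, 27.3% and 85.7% of each. In the Sst class with cocaine 8 nuclei were rich in Scg2, 13 in Vgf and 4 in both, 50.0% and 30.8% of each.

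Detection of the genes in the same nucleus was compared with the number that independent detection would give in each library, in nuclei thinned to 3000 UMIs. In D1 nuclei Scg2 and Pcsk1 were found together in 16 nuclei with saline against 7.92 expected and in 43 with cocaine against 18.2 expected. Scg2 and Vgf were together in 20 against 15.4 and in 50 against 33.8, and Vgf and Pcsk1 in 11 against 2.46 and in 15 against 7.63. For all 3 pairs the number exceeded the expected one in 4 of 4 libraries. Pcsk1 and Pcsk2, the 2 convertases, were together in 34 against 36.4 with saline and 65 against 70.3 with cocaine, below the expected number in 4 of 4 libraries. Pcsk2 had a UMI in 82.1% to 89.6% of these thinned nuclei, so a count with it can exceed the expected one only slightly. Scg2 with Pcsk2 was above the expected number in 1 of 4 D1 libraries and Vgf with Pcsk2 in 3 of 4. In D2 nuclei Scg2 and Pcsk1 were together in 16 against 8.39 and 28 against 13.7, and Scg2 and Vgf in 29 against 20.8 and 41 against 32.7, above the expected number in 4 of 4 libraries each. Vgf and Pcsk1 were together in 4 against 3.34 and 6 against 5.60 D2 nuclei, above it in 2 of 4 libraries. In Sst nuclei Scg2 and Vgf were together in 5 against 3.95 with saline and in 24 against 15.4 with cocaine, with none seen together in the saline female library. Over the 3 pairs of Scg2, Vgf and Pcsk1, 4 classes and 4 libraries, 35 of 48 counts were above the expected number. The excess was less regular outside D1 and D2 nuclei. Scg2 with Vgf, Scg2 with Pcsk1 and Vgf with Pcsk1 exceeded it in 3, 2 and 1 of 4 libraries in Grm8/Casz1 nuclei. In Sst nuclei these pairs exceeded it in 3, 1 and 3 of 4 libraries. Nuclei of 1 class differ in state and depth, and the excess carries no test.

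**Figure D4:**
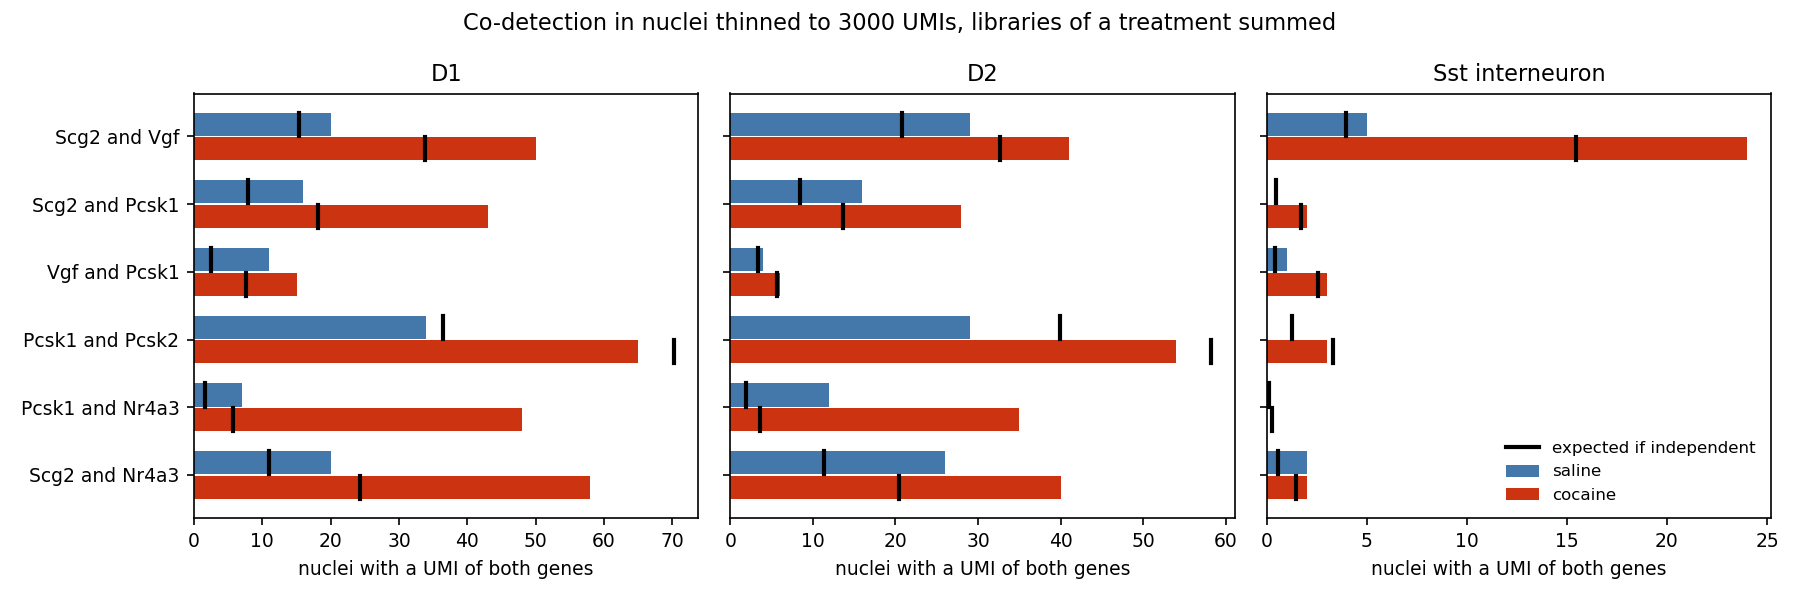
Nuclei with a UMI of both genes of a pair (bars) and the number expected if the genes were detected independently (black lines), in D1, D2 and Sst interneuron nuclei thinned to 3000 UMIs, with the libraries of a treatment summed. In D1 nuclei the bars of Scg2 with Pcsk1 rise above the line with saline and with cocaine.

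Pcsk1 shared nuclei with Nr4a3 beyond the expected number by a larger factor than with Scg2 in D1 nuclei with cocaine. In D1 nuclei they were together in 7 nuclei with saline against 1.63 expected and in 48 with cocaine against 5.67 expected, 8.47 times the expected number. With cocaine 62.8% and 51.2% of D1 nuclei with a Pcsk1 UMI had a Nr4a3 UMI in the female and male libraries, against 5.04% and 3.15% of those without Pcsk1. D2 nuclei had 12 together with saline against 1.92 expected and 35 with cocaine against 3.58. Scg2 and Nr4a3 were together in 20 D1 nuclei with saline against 10.9 and in 58 with cocaine against 24.3. In Sst nuclei with cocaine Vgf was found with Homer1 in 27 nuclei against 21.8 expected, with the early-induced factor genes Fosl2 in 7 against 3.41 and Junb in 6 against 3.83, and with Nr4a3 in 3 against 2.13. Nr4a3 itself was at 32.0 and 16.6 CPM in D1 nuclei with saline and at 122 and 72.1 CPM with cocaine.

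D1 nuclei fell mainly into a cluster led by Reln and a smaller one led by Htr4. In the Reln cluster Pcsk1 was at 13.4 and 12.3 CPM with saline and 40.2 and 30.5 CPM with cocaine, and Scg2 at 69.8 and 76.0 CPM against 131 and 134 CPM. In the Htr4 cluster, of 71, 245, 188 and 180 nuclei, Pcsk1 had 13, 8, 10 and 28 UMIs, or 15.0 and 3.59 CPM with saline and 5.56 and 17.2 CPM with cocaine, and Scg2 was at 114 and 67.2 CPM against 68.4 and 81.5 CPM. The treatments overlapped for both genes in the Htr4 cluster and did not in the Reln cluster. Vgf did not overlap in either, at 17.5 and 21.5 CPM with saline against 28.6 and 29.7 CPM with cocaine in the Reln cluster and at 20.8 and 23.3 against 31.2 and 31.3 CPM in the Htr4 cluster. The difference between the clusters was not tested.

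The order of the classes by level differed from gene to gene. Levels are means over all 4 libraries of CPM after TMM scaling, a correction for library composition. Over saline and cocaine together Scg2 was highest in Pthlh (171 ± 27.7 CPM, SD, n = 4 libraries), Sst (157 ± 81.5) and Grm8/Casz1 nuclei (149 ± 68.3), followed by D1 (112 ± 29.4), Klhl1 GABAergic (106 ± 20.5), D2 (88.1 ± 14.5) and glutamatergic nuclei (55.2 ± 7.52), and at most 15.2 CPM in the glial classes. These means and SDs span the treatments, so they include the cocaine values for which the genes were chosen. With saline alone, in CPM without TMM scaling, the order was Pthlh (155 ± 7.75, SD, n = 2), Klhl1 (116 ± 29.4), Sst (93.6 ± 7.36), Grm8/Casz1 (89.3 ± 22.8), D1 (74.3 ± 1.88), D2 (65.7 ± 7.41) and glutamatergic nuclei (48.9 ± 2.00). In a fit of all classes with library as a block, 12 of 40 contrasts between neighbours in the order of a gene passed an adjusted p of 0.05 (edgeR quasi-likelihood test, Benjamini-Hochberg over 12711 genes), against 41.4% of genes over the same pairs of classes. For Scg2 the steps from Grm8/Casz1 to D1 (log2 difference 0.38, edgeR adjusted p = 0.0151), Klhl1 to D2 (0.43, 0.0214), D2 to glutamatergic (0.70, 0.000805) and glutamatergic to microglia (1.83, 0.000136) passed. The order among Pthlh, Sst and Grm8/Casz1 nuclei did not exceed its error. All contrasts between classes, here and below, include the cocaine libraries. Steps such as that from Grm8/Casz1 to D1 therefore rest in part on the cocaine values.

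Vgf was highest in Sst interneuron nuclei, at 175 ± 99.3 CPM against 54.3 ± 17.7 in Klhl1 GABAergic and 52.2 ± 12.0 in Grm8/Casz1 nuclei. The step from Sst to Klhl1 nuclei passed (log2 difference 1.70, edgeR adjusted p = 7.12e-07), and so did that from Sst to D1 nuclei (2.60, 3.82e-15), a contrast in which 37.0% of all genes passed. Both steps include the cocaine values for which Vgf was chosen, with a mean of 287 CPM in Sst nuclei. Their p-values are therefore not independent of that choice. D2, D1, glutamatergic and Pthlh nuclei followed at 17.4 to 31.1 CPM, with only the step from Grm8/Casz1 to D2 passing among these classes (0.77, 0.000771). With saline alone Vgf in the Sst class was at 84.4 and 113 CPM, above the 44.0 and 37.6 CPM of Grm8/Casz1 nuclei. Its saline mean there was 98.7 ± 20.2 CPM (SD, n = 2), against 54.4 ± 6.21 CPM in Klhl1 nuclei, without TMM scaling.

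Pcsk1 had its highest mean in glutamatergic nuclei (61.5 ± 19.6 CPM), then Pthlh (30.8 ± 14.0), D1 (24.4), D2 (22.0), Klhl1 (19.2), Grm8/Casz1 (15.0) and Sst nuclei (14.3). None of its 10 steps between neighbours passed by edgeR (1 had an unadjusted p under 0.05), and that from glutamatergic to Pthlh nuclei had a log2 difference of 0.71 (edgeR adjusted p = 0.141). Across a wider gap it was higher in glutamatergic than in D1 nuclei (log2 difference 1.31, edgeR adjusted p = 5.56e-06), a contrast with 40.9% of genes called. Pcsk2 was highest in Grm8/Casz1 (1390 ± 107 CPM), D2 (1049 ± 29.9) and D1 nuclei (987 ± 72.8), and higher in Grm8/Casz1 than in D2 nuclei (0.41, edgeR adjusted p = 0.0359). Outside neurons Pcsk2 was found in oligodendrocyte precursors at 350 ± 73.3 CPM, far above oligodendrocytes at 37.4 CPM (log2 difference 3.24, edgeR adjusted p = 1.54e-21), where 57.9% of genes passed.

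Female and male libraries were compared with treatment as a covariate, a contrast that did not choose the genes. Of the 31 tested pairs of gene and class 3 passed, all lower in females, while 1.49% of all genes passed over the 11 classes. Vgf in D2 nuclei had a log2 difference of -0.47 (SE 0.13, edgeR adjusted p = 0.0309; 2.06% of genes called), with 23.9 and 21.3 CPM in females and 31.5 and 31.3 CPM in males. Scg2 in Grm8/Casz1 nuclei had -0.53 (SE 0.13, edgeR adjusted p = 0.0175; 0.696% called), with 73.2 and 158 CPM in females against 105 and 221 CPM in males. Pcsk2 in oligodendrocyte nuclei had -0.52 (SE 0.17, edgeR adjusted p = 0.0339; 6.39% called), at 25.8 and 31.2 CPM in females against 42.8 and 39.7 CPM in males. DESeq2 called no pair (2 had an unadjusted p under 0.05) and gave no adjusted p for Pcsk2. The edgeR fits without 1 library left out the treatment term, so the sexes then differed in their share of cocaine libraries. For Scg2 without the cocaine male library, females at 73.2 and 158 CPM stood against the saline male library at 105 CPM alone. Vgf lost its call without any 1 library, Scg2 without any 1 library but the cocaine female one and turned to 0.09 without the cocaine male library, and Pcsk2 without any 1 library.

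The wider pathway was followed in a list of 58 other secretory genes, 57 of them among the listed symbols. The list was chosen with earlier results of these data known, so its calls are no independent test. Fits without 1 library left out the sex term. In D1 nuclei 5 of 49 tested passed, all higher with cocaine, and the median log2 difference of the list was 0.09 against 0.00 for all genes, of which 1.50% passed. They were the peptide precursors Tac1 (substance P; log2 difference 0.55, edgeR adjusted p = 4.91e-09), Penk (enkephalin; 1.19, 1.27e-08) and Nts (neurotensin; 0.56, 0.00900) and the vesicle genes Ptprn (0.48, 4.88e-06) and Syt10 (0.37, 0.0238). Ptprn, a membrane protein of dense-core vesicles, was at 128 and 132 CPM with saline and at 174 and 193 CPM with cocaine. Its call was lost without either cocaine library and with clusters in place of gates. Syt10 lost its call without any 1 library, with doublets kept, with stricter gates and with clusters in place of gates. Nts overlapped, at 14.0 and 26.6 CPM with saline and 26.1 and 33.6 CPM with cocaine, and its difference ran from 0.15 to 1.06 without 1 library, with the call kept only when the saline male one was left out. Nts also lost its call with doublets kept, with stricter gates and with clusters in place of gates. Tac1 was at 156 and 178 CPM with saline and 236 and 258 CPM with cocaine, and lost its call without the cocaine male library. Penk, chiefly a gene of D2 neurons, was at 5.2 and 13.7 CPM against 14.5 and 28.7 CPM in D1 nuclei. Its difference ran from 0.61 to 2.02 without 1 library, and the call was lost without the saline female or the cocaine male one. The 4 D2 markers summed to 4.88 and 4.21 CPM with saline and 5.46 and 9.52 CPM with cocaine in the same nuclei, and their part in the Penk value was not tested.

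The other granins and the processing enzymes gave no call in D1, D2 or Sst nuclei by edgeR or DESeq2. In D1 nuclei 3 of 5 granins and related genes and 2 of 8 processing enzymes had an unadjusted edgeR p under 0.05, in D2 nuclei 1 of 5 and 0 of 8, and in Sst nuclei 1 of 5 and 2 of 6. In D1 nuclei the log2 differences were 0.34 for Chga (edgeR adjusted p = 0.0662), 0.20 for Chgb, 0.45 for Scg3, 0.15 for Scg5, 0.14 for the convertase inhibitor precursor Pcsk1n, 0.18 for the carboxypeptidase gene Cpe, 0.09 for the amidating enzyme gene Pam and 0.11 for Furin.

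Nts (0.88, edgeR adjusted p = 1.20e-07) and Tac1 (0.84, 0.00443) passed in D2 nuclei, 2 of 49 with 0.755% of all genes called. Without 1 library Nts ran from 0.43 to 1.42 and Tac1 from 0.20 to 1.74, and each kept its call only when the saline male one was left out. Tac1 also lost its call there with stricter gates. Tac1 (0.57, 0.00186) and Penk (0.52, 0.0294) passed in Grm8/Casz1 nuclei, 2 of 42 with 0.581% called. Both overlapped between treatments, Tac1 at 124 and 260 against 209 and 349 CPM and Penk at 76.8 and 137 against 117 and 188 CPM. They ran from 0.05 to 1.17 and from 0.09 to 0.98 without 1 library, and kept their calls only when the saline male one was left out. Both also lost their calls with doublets kept, and Penk with stricter gates. In Sst nuclei 1 of 35 passed, Tac1 (1.19, edgeR adjusted p = 0.0268), at 40.2 and 62.1 CPM with saline and 113 and 128 CPM with cocaine, with 0.682% of genes called and a list median of 0.25. This call was lost without any 1 library, with clusters in place of gates and with the wider gene filter. None of the list passed in the other 6 classes by edgeR (11 of 198 had an unadjusted p under 0.05) or DESeq2, and 0.198% of all genes did by edgeR. DESeq2 called none of the list in any class (8 of 591 had an unadjusted p under 0.05).

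Tac1 is not a defining gene of Sst interneurons, and other neurons' markers were found in that class in all 4 libraries. The 6 general spiny markers were all detected and summed to 2890 and 2748 CPM with saline and to 3140 and 3774 CPM with cocaine, the 4 D2 markers to 16.1 and 36.7 against 36.8 and 57.3 CPM, and the oligodendrocyte markers to 92.4 and 76.3 against 143 and 115 CPM. The 4 D1 markers, at 28.1 and 65.0 against 48.3 and 50.6 CPM, overlapped. The oligodendrocyte precursor markers were lower with cocaine, at 24.1 and 56.5 against 18.4 and 6.7 CPM. Vip and Pthlh were at 0 in this class. The Sst markers themselves summed to 3561 and 4197 CPM with saline and 3496 and 4608 CPM with cocaine. The part of other cells' RNA in the Scg2, Vgf and Tac1 values of this class was not tested. Scg2 and Vgf were lower in D1 nuclei of the same libraries (118 and 124 CPM and 31.4 and 30.5 CPM with cocaine) than in Sst nuclei (246 and 256 CPM and 253 and 320 CPM).

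In oligodendrocyte nuclei 3 of 42 list genes passed, with 1.44% of all genes called. Scg5 (log2 difference 0.75, edgeR adjusted p = 5.15e-06), Penk (0.68, 0.00721) and Tac1 (0.91, 0.0307) were higher with cocaine, and Tac1 was at 6.8 and 14.0 CPM with saline and 15.6 and 23.5 CPM with cocaine. Penk overlapped, at 20.8 and 30.8 against 29.0 and 60.3 CPM. Without 1 library Penk ran from 0.16 to 1.19 and Tac1 from 0.41 to 1.41, and both lost their calls each time, while Scg5 kept its call only without the saline female library. Tac1 also lost its call in these nuclei with stricter gates. Scg2 and Vgf moved the same way in these nuclei at no more than 1 UMI per nucleus.

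The genes whose level over the 11 class means was most like each member, by Pearson's r among 10203 genes, were Vstm2a (0.97), Tubb3 and Epha6 for Scg2, Ogfr (0.94), Nrsn2 and Bex1 for Vgf, Prrt3 (0.99), Snap25 and Dnm1 for Pcsk1, and Jph3 (0.98), Fam78b and Shisa7 for Pcsk2. Scg2 and Vgf had an r of 0.90 with each other, and Pcsk1 and Pcsk2 of 0.88. All class means come from the same 4 libraries and mainly separate neurons from glia, so these values describe these 11 classes.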

How the data were processed

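For each library the authors deposited raw UMI counts of every gene in every nucleus, made with Cell Ranger 6.1.2 per the file headers (10x 3′ chemistry; rn7 per the submitters' processing notes), with no normalization. Kept nuclei had 200 genes or more and no more than 5% of UMIs from mitochondrial genes, and the highest Scrublet scores (0.8% per 1000 nuclei, 4.97% to 5.81%) were removed as doublets (scanpy 1.11.5). Nuclei were assigned to classes by marker-gene gates whose limits were set after seeing the data, and 6060 stayed out, 91 of them in more than 1 gate. The deposited counts were summed per library and class. The test was edgeR 4.0.16 (quasi-likelihood, TMM, filterByExpr, R 4.3.3), with treatment and sex as terms and Benjamini-Hochberg adjustment over all genes of a class at 0.05. In the D1, Sst and oligodendrocyte classes all genes share 1 dispersion trend, on which very small p-values and the SEs rest. Each SE is the size of the fitted log2 difference divided by the square root of the edgeR F value. The fitting steps were tested on simulated data. CPM divides by the UMIs of the class, and Pearson's r used log2(CPM + 1) over genes with a mean of at least 10 CPM. DESeq2 1.42.0 was an alternative. Fits of the cocaine and sex contrasts without 1 library held only the term compared. The text names the 4 genes, list genes past the threshold (up to 5 per class), 8 fixed granin and enzyme genes, fixed activity genes and the 3 genes most like each member. The members and lists were chosen with earlier results of these data known.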

Additional observations from a re-analysis of the deposited data

Results flagged for a closer look

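Both convertases were lower with cocaine in both sexes in Pthlh interneuron nuclei and higher in both sexes in some other classes. Pcsk1 had a mean log2 ratio of cocaine over saline of -0.70 in Pthlh nuclei, lower in both sexes, while it was higher in both sexes in D1, D2, Grm8/Casz1 and glutamatergic nuclei. In Grm8/Casz1 nuclei Pcsk1 passed the filter through the cocaine libraries alone. Pcsk2 had a mean log2 ratio of -0.73 in Pthlh nuclei, lower in both sexes, while it was higher in both sexes in D2 and Klhl1 GABAergic nuclei. In D2 nuclei its log2 ratios were only 0.05 and 0.05, and the sign of the fitted difference turned in 4 of 11 other settings. The lower values were not confined to Pthlh nuclei: the log2 ratios in females and males were -0.04 and -0.92 for Pcsk1 in Klhl1 GABAergic nuclei, and for Pcsk2 -0.17 and -0.28 in cholinergic nuclei and -0.11 and -0.13 in oligodendrocyte precursors. The differences between classes were not tested. The Pthlh class held 79 and 65 nuclei with saline and 67 and 41 with cocaine, and its Pcsk1 values rest on 5 to 37 UMIs per library.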

How the results depend on the processing

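The number of gene and class pairs with a higher fitted level with cocaine, 22 of 31, was 15 to 33 under the other settings, in each of which the number of pairs passing the filter also moved. The 12 of 40 neighbour steps that passed became 8 to 17, and the 35 of 48 pairs above their expected co-detection became 46 without thinning and 24 to 28 of 36 without 1 library. The 3 sex calls became 0 with DESeq2, 1 with doublets kept, 1 with stricter gates, 0 without the treatment term, and 0 to 2 without 1 library. The 13 calls of the secretory list became 0 with DESeq2, 0 without the sex term, and 2 to 12 without 1 library (4, 2 and 3 when the saline female, cocaine female or cocaine male library was left out). Without these terms 4 sex pairs and 35 list pairs had an unadjusted edgeR p under 0.05. Several list calls were also lost with doublets kept, stricter gates or clusters in place of gates, as given above. In D2 nuclei the Pcsk2 log2 difference of 0.01 turned to -0.0185 with stricter gates and -0.0103 with clusters in place of gates, and ran from -0.0225 to 0.0444 without 1 library, negative when the cocaine female or the saline male one was left out. Scg2 in glutamatergic nuclei turned to -0.28 with doublets kept and ran from -0.0254 to 0.293 without 1 library, negative when the cocaine female one was left out. The sex difference of Scg2 in Grm8/Casz1 nuclei ran from -1.17 to 0.094 without 1 library, positive when the cocaine male one was left out. The cause of these changes was not tested. Without 1 library the fits of the cocaine and sex contrasts also dropped the other term, sex or treatment. Their changes therefore mix the loss of a library with the loss of a term. The lone pool left in a group was then assumed to vary like the others. The labels number no replicates, and the sex term already joins the female pools and the male pools across treatments, so that fit is itself the paired one and the fit without the sex term is the unpaired one. The 31 Sst nuclei of the saline female library limit what can be seen in that class.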
